A study of Homo sapiens with 8 samples.

Results

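The genes of 7 red cell enzymes were examined: CA1, CA2, BPGM, PKLR, BLVRB, CAT and NT5C3A. They were chosen by gene symbol in the supplied probe annotation, and each had 1 probe set, which makes 7 of the 17687 genes measured. The 8 arrays came from K562 and KBM5, 2 human cell lines of chronic myeloid leukaemia whose growth depends on the fusion kinase BCR-ABL1. In each line 1 array was made for each of 4 treatments: the combination (OR21 at 100 nM for 3 days, then IM at 1000 nM), IM alone at 1000 nM, OR21 alone at 100 nM for 3 days, and the control with no drug, with RNA taken 24 hours after IM was added. IM is imatinib, an inhibitor of BCR-ABL1, and OR21 is called a demethylating agent in the series title. The OR21 dose of the combination comes from the treatment protocol, since the arrays' own label omits it. There was 1 array for each line and treatment, and each line stands for 1 patient's leukaemia, which limits both as models. The title of the K562 control carries another index digit than the other 7 titles, and its meaning is not given.

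Red blood cells lack mitochondria and a nucleus and live on a small set of enzymes. Carbonic anhydrases turn carbon dioxide and water into bicarbonate, so that the blood can carry carbon dioxide. Glycolysis supplies the ATP, and a side branch of it makes bisphosphoglycerate, which loosens the grip of haemoglobin on oxygen. Catalase removes hydrogen peroxide, biliverdin reductase B reduces flavin and a breakdown product of heme, and pyrimidine 5'-nucleotidase clears pyrimidine nucleotides when the RNA of the maturing cell is degraded. K562 is known for its ability to make embryonic and fetal haemoglobin, whereas KBM5 is a myeloid blast line.

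The promoter of PKLR is shown because PKLR has separate starts for its red cell and liver forms and was among the genes raised by IM in K562. In the RefSeq table of promoters (build GRCh38.p14), 5 of the 7 genes had a window, namely BPGM, PKLR, BLVRB, CAT and NT5C3A. The sequences below are the 250 bases before a start, read 5′ to 3′ on the gene's own strand. Capitals mark matches on either strand to AGATAA or to AGATAG and to TGATAA or to TGATAG, the letters of GATA factor sites. They also mark CCNCNCCC, a loose pattern that includes the CACCC boxes that KLF factors recognise, but other letters too.
PKLR start 1, upstream, of the red cell form, chr1:155301439-155301688, minus strand: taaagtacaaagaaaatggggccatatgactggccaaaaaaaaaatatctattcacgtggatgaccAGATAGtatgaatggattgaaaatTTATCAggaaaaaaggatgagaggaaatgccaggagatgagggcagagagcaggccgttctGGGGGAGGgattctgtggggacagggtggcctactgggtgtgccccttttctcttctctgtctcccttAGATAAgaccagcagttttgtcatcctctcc
PKLR start 2, downstream, of the liver form, chr1:155300953-155301202, minus strand: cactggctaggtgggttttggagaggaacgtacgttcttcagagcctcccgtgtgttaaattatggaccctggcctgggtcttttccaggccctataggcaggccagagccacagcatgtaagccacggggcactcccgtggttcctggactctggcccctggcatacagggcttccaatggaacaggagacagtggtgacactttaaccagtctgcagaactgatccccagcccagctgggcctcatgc
BLVRB, chr19:40465746-40465995, minus strand: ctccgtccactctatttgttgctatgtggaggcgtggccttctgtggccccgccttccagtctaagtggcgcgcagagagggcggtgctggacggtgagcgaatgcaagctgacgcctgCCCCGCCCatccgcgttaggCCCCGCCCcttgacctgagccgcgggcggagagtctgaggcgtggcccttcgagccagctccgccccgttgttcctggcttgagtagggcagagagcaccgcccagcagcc

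The upstream PKLR window held 3 GATA matches, at bases -184 to -179, -160 to -155 and -31 to -26 from the start, and 1 match to CCNCNCCC. No GATA match lay in the downstream PKLR window or in those of BLVRB, BPGM and CAT, while the second start of NT5C3A had 1. Of all 35116 windows of the same 250 bases, 22.33% held at least 1 GATA match and 4.96% held 2 or more, and 53.39% held CCNCNCCC. BLVRB had 2 matches to CCNCNCCC, CAT 4, the first start of NT5C3A 7 and BPGM none. The 2 of BLVRB read CCCCGCCC and the 1 of the upstream PKLR window GGGGGAGG, and these matches do not themselves hold CACCC on either strand. Outside its match, the upstream PKLR window does hold CACCC on the other strand, printed as gggtg. CCNCNCCC does not mark those letters. The upstream PKLR window had 2 CpG dinucleotides, the sites that DNA methylation uses, and its downstream window 5. BLVRB had 21, CAT 18, BPGM 14, the first start of NT5C3A 25 and its second start 4, against a median of 11 over all windows. In the full windows of 300 bases, which add 50 bases after the start, the upstream PKLR window had 3 GATA matches and 2 to CCNCNCCC, against 24.97% and 56.18% of all windows with at least 1. These matches describe letters and not bound factors, and the array does not separate the 2 forms of PKLR.

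All values are linear intensities as deposited, and differences are on the log2 scale. A gene is called, and said to have risen or fallen, where its adjusted p in limma, a linear model fitted over all genes, was under 0.05. The drug effect in a line rests on 2 array pairs, with and without the other drug. The background of an array, set at the 95th percentile over its negative controls, lay between 161 and 263. Of 11 measured erythroid markers, 11 were above background on the K562 combination and IM arrays, 9 on the K562 OR21 array and 7 on the K562 control array. In KBM5 only TFRC, the transferrin receptor of all dividing cells, was above background, so that ALAS2, HBB, HBE1, HBZ, GATA1 and KLF1 were at background on all 4 arrays. KBM5 instead had 3 to 6 of 8 granulocytic and monocytic markers above background, against 1 of 8 (LYZ) on each K562 array.

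**Figure D1:**
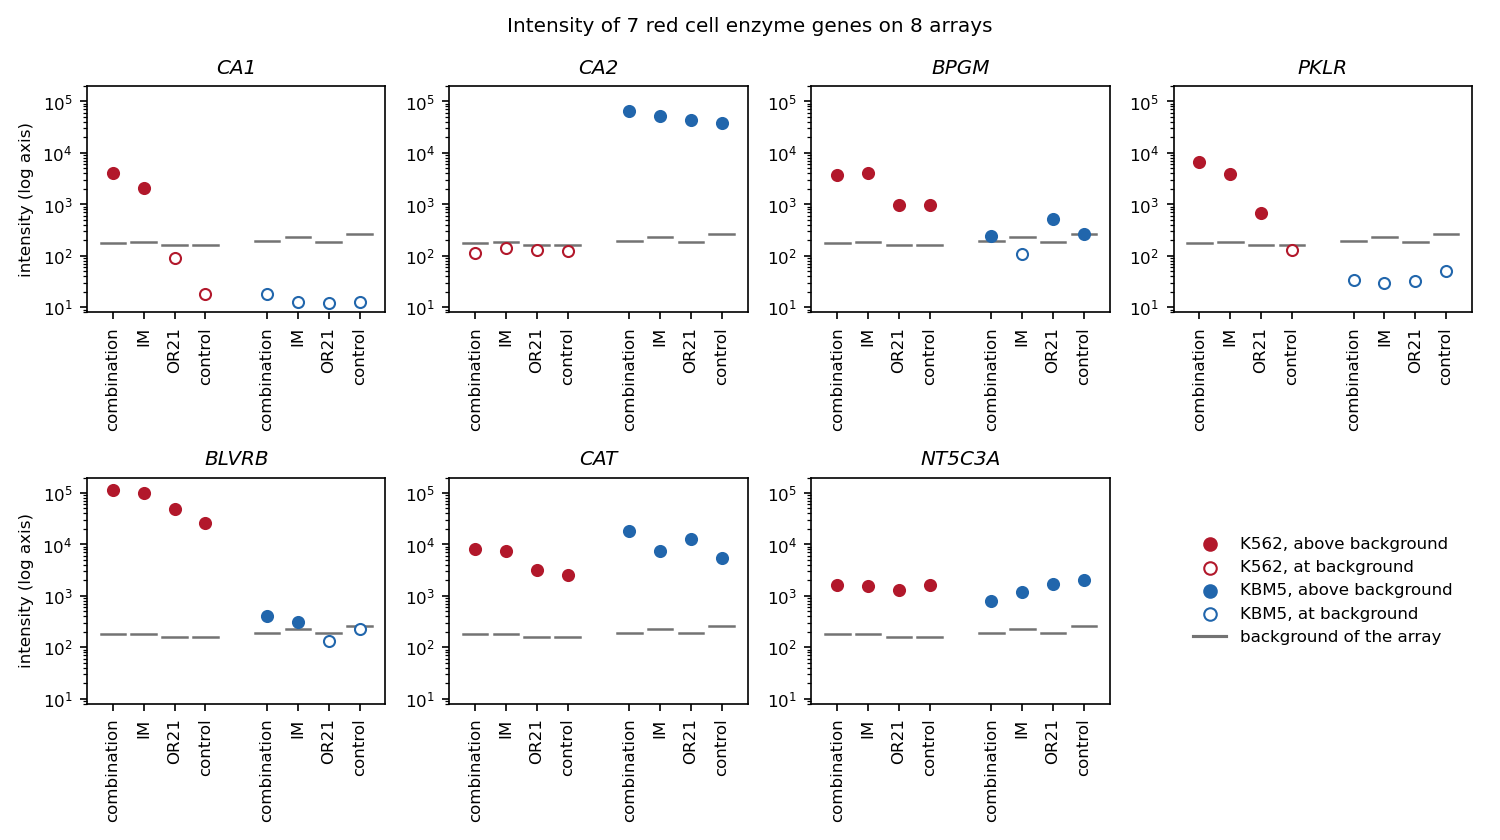
Intensity of each of the 7 genes (log axis) on the 8 arrays, with the 4 treatments of K562 (red) left of those of KBM5 (blue); filled points are above the background of their array (grey bar) and open points are not. CA1 and PKLR reach 2076 and 3964 or more on the 2 K562 arrays with IM, CA2 is above background in KBM5 alone, and BLVRB in K562 is at 26501 or more on every array.

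Taking the 7 genes as a group, 5 rose with IM in K562 (CA1, PKLR, BPGM, BLVRB and CAT) and none fell, where 5.34% of all genes rose and 8.05% fell. The 7 were chosen with earlier results of these data known, so the counts only describe them and do not test the group. In KBM5 1 rose (BLVRB) and 2 fell (BPGM and NT5C3A), where 10.8% of all genes rose and 10.6% fell. In the model of both lines 1 of 7 rose, against 2.75% of all genes. The median difference of the 7 with IM was 1.57 in K562 and 0.28 in KBM5, beside 0.07 and 0.03 for all genes. The K562 count was 3 without the K562 control or the K562 IM array. The labels do not say whether arrays came from separate cultures, so the p-values reflect the scatter of array pairs, which may be technical. In the model per line, limma pooled that scatter over both lines and drew it towards the spread of all genes. The prior weighed 8.309 degrees of freedom against 2 residual ones, so an SE is not the scatter of a gene's own pairs in 1 line. The p-values per line also treat the drugs as adding on the log2 scale.

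CA1 encodes carbonic anhydrase I, the most abundant carbonic anhydrase of the mature red cell. In K562 its intensity was 4064 with the combination, 2076 with IM, 91.6 with OR21 and 18.6 in the control. The combination and IM arrays were at 22.3 and 11.2 times their background, and both arrays without IM lay below theirs. In KBM5 it was 18.2 with the combination, 12.6 with IM, 12.1 with OR21 and 12.9 in the control, all below background. CA1 was at least 17.96-fold higher with IM in K562, where the fitted difference was 6.14 ± 0.32 (SE, 2 array pairs, limma adjusted p = 6.01e-06). The pair without OR21 gave 6.80 and the pair after OR21 gave 5.47.

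CA2 encodes carbonic anhydrase II, a fast isoenzyme of red cells that is also made in many other tissues. In K562 it was at background throughout, with 114 in the combination, 145 with IM, 133 with OR21 and 125 in the control. In KBM5 it was 64671 with the combination, 53395 with IM, 44154 with OR21 and 38449 in the control. The ranges of the lines did not overlap, and CA2 was at least 285-fold lower in K562 than in KBM5 over the 4 matched treatments (limma adjusted p = 3.09e-06). Within KBM5 the differences with IM were 0.47 without OR21 and 0.55 after OR21, a fitted 0.51 ± 0.24 (SE) that was not called (limma adjusted p = 0.174). The 2 carbonic anhydrases thus stood on opposite sides: CA1 was at background in the line with CA2, and CA2 was at background in the line in which CA1 rose.

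The rest of the carbonic anhydrase family was mostly silent. Of 14 measured members, CA1 and CA2 included, 4 were above background on at least 1 array, and the others were CA5B, the mitochondrial isoform, and CA8, a related protein without carbonic anhydrase activity. CA8 was above background on all 4 K562 arrays, with 920 in the combination, 804 with IM, 763 with OR21 and 501 in the control, and at background in KBM5, at least 3.36-fold higher in K562 (limma adjusted p = 5.42e-06). CA5B, with values between 170 and 355, did not pass the test between lines. CA1 was the sole member of the 14 that IM raised in K562, where 5.34% of all genes rose. No member was called with IM in KBM5, where 10.8% of all genes rose and 10.6% fell. The median difference of the family with IM was 0.08 in K562 and 0.16 in KBM5, against 0.07 and 0.03 over all genes.

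BPGM encodes bisphosphoglycerate mutase, which makes the bisphosphoglycerate of red cells. Its intensity in K562 was 3757 with the combination, 4060 with IM, 990 with OR21 and 967 in the control. The arrays with and without IM did not overlap. In KBM5 the order was another, with 243 in the combination, 110 with IM, 513 with OR21 and 267 in the control, and the IM array was below background. BPGM rose by 2.00 ± 0.23 (SE) with IM in K562, which is 3.99-fold (limma adjusted p = 0.000451), and fell by 1.18 ± 0.23 with IM in KBM5 (limma adjusted p = 0.00441). The KBM5 value is not exact, since 3 of the 4 arrays were above background and the control was at 1.01 times its background.

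PKLR encodes the pyruvate kinase of red cells and liver, which takes the last step of glycolysis. In K562 it had 6590 in the combination, 3964 with IM, 671 with OR21 and 133 in the control, where it was below background. In KBM5 its values were between 30.1 and 51.5, all below background. The 3 K562 arrays above background were higher than the 4 KBM5 arrays, while the K562 control was below background like those of KBM5. With IM in K562 PKLR rose by 4.10 ± 0.36 (SE), or 17.1-fold (limma adjusted p = 0.000116), and 1 of the 2 arrays without IM was at background, so this size is only approximate. The pair without OR21 gave 4.90 and the pair after OR21 3.30.

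The housekeeping pyruvate kinase gene PKM went the other way in the same cells. PKM had 994 in the K562 combination, 1546 with IM, 8299 with OR21 and 17054 in the control, and fell by 3.26 ± 0.25 (SE) with IM (limma adjusted p = 4.26e-05). In KBM5 PKM fell by 0.91 ± 0.25 with IM (limma adjusted p = 0.0225), and the difference between the lines was itself called, at -2.35 ± 0.35 (limma adjusted p = 0.00219). Of 16 genes of red cell glycolysis and the bisphosphoglycerate shunt, PKLR and BPGM were the 2 that rose with IM in K562, while 7 fell and 7 were not called. Among those that fell were the lactate dehydrogenase gene LDHA (-2.33 ± 0.25), PGAM1 (-1.75 ± 0.25), which encodes the phosphoglycerate mutase of most tissues, and PGK1 (-1.58 ± 0.28), the phosphoglycerate kinase gene. The median of the list was -0.60 in K562 and -0.96 in KBM5. Over all genes, 5.34% rose and 8.05% fell with IM in K562, and 10.8% rose and 10.6% fell in KBM5. In KBM5 10 of the 16 fell, led by LDHA (-3.17 ± 0.25), PGAM1 (-2.85 ± 0.25) and PGK1 (-2.47 ± 0.28), and the 10 include MINPP1, at background on all 4 KBM5 arrays like HK1, the 1 called higher.

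BLVRB encodes biliverdin reductase B, also known as flavin reductase. Its intensity in K562 was 115773 with the combination, 98371 with IM, 49015 with OR21 and 26501 in the control, between 165 and 636 times the background of its array. In KBM5 it was 402 with the combination and 312 with IM, both above background, and 134 with OR21 and 226 in the control, both below. BLVRB was higher in K562 than in KBM5 by 7.96 ± 0.29 (SE) over the matched treatments, about 250-fold (limma adjusted p = 7.45e-06), a size that is not exact since 2 KBM5 arrays were at background. It rose by 1.57 ± 0.30 with IM in K562 (limma adjusted p = 0.00759) and was at least 1.59-fold higher with IM in KBM5 (limma adjusted p = 0.0359). Of the 7 genes it was the one called with IM in the model of both lines, with 1.30 ± 0.29 and higher values in 4 of 4 array pairs (limma adjusted p = 0.047). That call was lost (limma adjusted p between 0.0743 and 0.181) without any 1 of 7 arrays, the KBM5 control being the exception. The KBM5 call was lost without the KBM5 OR21 or combination array (limma adjusted p = 0.409), when the pair left had a difference of 0.47, and with log2(value + 16) (0.0643). The call over both lines was also lost with log2(value + 16) (0.0712) and with the line left out of the model (0.971).

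Among the other heme breakdown genes, the paralog BLVRA, which reduces the biliverdin that adults make, was 6.30-fold higher in K562 than in KBM5 (limma adjusted p = 0.00122). BLVRA had 1863 in the K562 combination, 1473 with IM, 1655 with OR21 and 1485 in the control, with no call for IM. In KBM5 it fell by 1.33 ± 0.25 (SE) with IM (limma adjusted p = 0.00315), with 1 of the 2 arrays with IM at background. The inducible heme oxygenase gene HMOX1 was at background on all 8 arrays, and HMOX2, the constitutive form, was between 1117 and 2415 and was not called for either drug.

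CAT encodes catalase and was above background on all 8 arrays. In K562 it had 8331 with the combination, 7637 with IM, 3262 with OR21 and 2536 in the control, and the arrays with and without IM did not overlap. In KBM5 it had 18242 with the combination, 7605 with IM, 12587 with OR21 and 5472 in the control, so there the 2 arrays with OR21 were the highest. CAT rose by 1.47 ± 0.23 (SE) with IM in K562 (limma adjusted p = 0.00246). In KBM5 the difference with IM was 0.51 ± 0.23 (limma adjusted p = 0.167). Leaving out the K562 control or the IM array of K562 ended the K562 calls of CAT and BLVRB, with limma adjusted p of 0.103 and 0.219.

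Of 9 measured genes of peroxide and superoxide removal, CAT was the 1 that rose with IM in K562, and 3 fell: PRDX4 (-1.33 ± 0.26), PRDX1 (-1.005 ± 0.25), both peroxiredoxins, and the thioredoxin reductase gene TXNRD1 (-0.87 ± 0.24). In KBM5 7 of the 9 fell with IM, among them PRDX1 (-3.49 ± 0.25), PRDX4 (-2.42 ± 0.26, 1 of 2 arrays with IM at background), the superoxide dismutase gene SOD1 (-2.30 ± 0.23), PRDX3 (-1.99 ± 0.23), the thioredoxin gene TXN (-1.90 ± 0.23) and PRDX2 (-1.16 ± 0.23), the main peroxiredoxin of red cells. The list's median was -0.44 in K562 and -1.90 in KBM5. Of all genes, 5.34% rose and 8.05% fell with IM in K562, and 10.6% fell in KBM5. For 5 of the 9 the difference in IM effect between the lines was called higher in K562, where 4.90% of all genes were. The largest were SOD1 (2.51 ± 0.33) and PRDX1 (2.49 ± 0.36).

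NT5C3A encodes the pyrimidine 5'-nucleotidase of red cells and varied least of the 7 genes. In K562 it had 1622 with the combination, 1576 with IM, 1319 with OR21 and 1600 in the control, and the arrays with and without IM overlapped. In KBM5 it had 785 with the combination, 1171 with IM, 1699 with OR21 and 2046 in the control. NT5C3A fell by 0.96 ± 0.24 (SE) with IM in KBM5 (limma adjusted p = 0.0156), a call lost without the KBM5 OR21 or combination array (limma adjusted p = 0.113), and in K562 the difference was 0.14 ± 0.24 (limma adjusted p = 0.778). Its paralog NT5C3B was between 6180 and 9988 in K562 and at background on all KBM5 arrays, at least 37.7-fold higher in K562 (limma adjusted p = 3.37e-06).

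Of the other 12 measured genes of nucleotide salvage and 5'-nucleotidases, the mitochondrial nucleotidase gene NT5M rose with IM in K562 (1.02 ± 0.23) and the purine nucleotidase gene NT5C2 fell (-0.85 ± 0.23). In KBM5, the adenosine deaminase gene ADA (2.17 ± 0.24) and NT5C2 (1.43 ± 0.23) rose, and PNP (-1.45 ± 0.37) and APRT (-1.02 ± 0.23, near background) fell beside NT5C3A. NT5C2 thus had calls of opposite sign in the lines, and the difference was called as well (-2.28 ± 0.33, limma adjusted p = 0.00189). The median of the 13 genes was -0.12 in K562 and 0.02 in KBM5. Among all genes, 5.34% rose and 8.05% fell with IM in K562, and 10.8% rose and 10.6% fell in KBM5.

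The IM effect itself differed between the lines for 3 of the 7 genes, each higher in K562, where 4.90% of all genes were called higher in K562 and 5.25% lower. The difference was 5.86 ± 0.46 (SE) for CA1 (limma adjusted p = 0.000104), 4.47 ± 0.51 for PKLR (limma adjusted p = 0.000668) and 3.18 ± 0.33 for BPGM (limma adjusted p = 0.000385). For CA1 and PKLR the KBM5 side was at background. For NT5C3A it was 1.10 ± 0.34 (limma adjusted p = 0.0699), for CAT 0.97 ± 0.33 (0.0973), for BLVRB 0.54 ± 0.43 (0.52) and for CA2 -0.51 ± 0.34 (0.42).

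**Figure D2:**
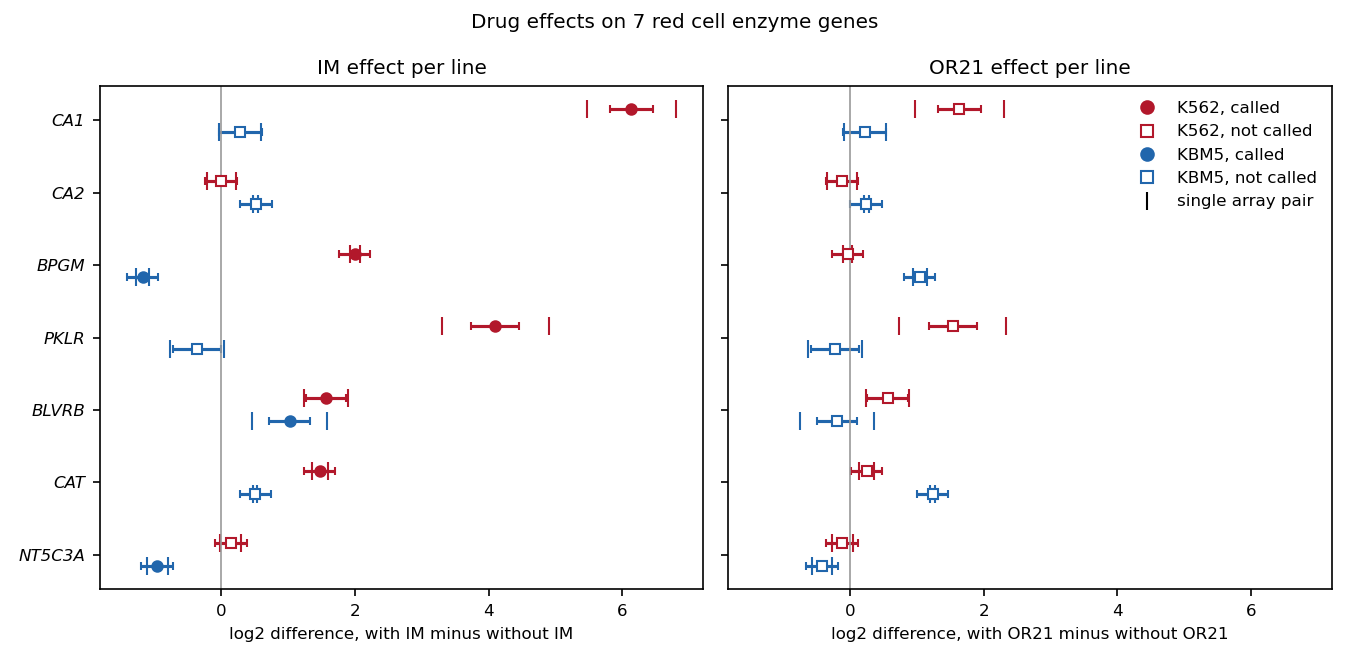
Log2 difference of each of the 7 genes with IM minus without IM (left) and with OR21 minus without OR21 (right), fitted in K562 (red, upper) and KBM5 (blue, lower) with SE bars; ticks are the 2 single array pairs, filled circles are called and open squares are not. CA1 (6.14) and PKLR (4.10) in K562 have the largest IM differences, and BPGM is at 2.00 in K562 and -1.18 in KBM5; no gene is called for OR21.

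In K562 the summed level of the erythroid markers was higher with IM, like 5 of the 7 genes. The sum over 11 markers was 798551 in the K562 combination, 726438 with IM, 271396 with OR21 and 105932 in the control, whereas in KBM5 it was between 1870 and 20101. Such a sum is set by its brightest probes, HBZ with 473566 in the K562 combination and TFRC with 19724 in KBM5 with OR21. With IM, 9 of the 11 markers rose in K562, among them SLC4A1, the anion exchanger of the red cell membrane, at least 9.81-fold higher, and ALAS2 (5.96 ± 0.57), the first enzyme of erythroid heme synthesis. In KBM5 none of the 11 rose and TFRC fell (-3.44 ± 0.25), while of 8 granulocytic and monocytic markers 4 rose and MPO fell (-0.99 ± 0.27, 1 of 2 arrays above background on either side). Those that rose included the lysozyme gene LYZ (3.47 ± 0.37) and CSF1R, a growth factor receptor, at least 6.52-fold higher. Of 8 megakaryocytic markers 3 were called higher with IM in K562, with the platelet tubulin gene TUBB1 higher by at least 26.0-fold, while PF4 and ITGB3 were at background on all 4 arrays. The erythroid transcription factor genes KLF1 (1.54 ± 0.28), TAL1 (1.89 ± 0.30), LMO2 (1.62 ± 0.26) and GFI1B (1.29 ± 0.25) rose with IM in K562, 4 of 9 on that list. In KBM5 2 of the 9 rose, NFE2 (2.08 ± 0.28, 1 of 2 arrays without IM at background) and LDB1 (1.06 ± 0.27), and the IM effect on NFE2 was lower in K562 than in KBM5 (-1.61 ± 0.39, limma adjusted p = 0.0272). Beside these counts, 5.34% of all genes rose with IM in K562, and 10.8% rose and 10.6% fell in KBM5. GATA1, with 13517 in the K562 combination, 10621 with IM, 14713 with OR21 and 10445 in the control, was not called. The part of these markers in the changes of the 7 enzymes was not tested, and on arrays of whole cultures more cells of a type and more RNA per cell cannot be told apart.

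**Figure D3:**
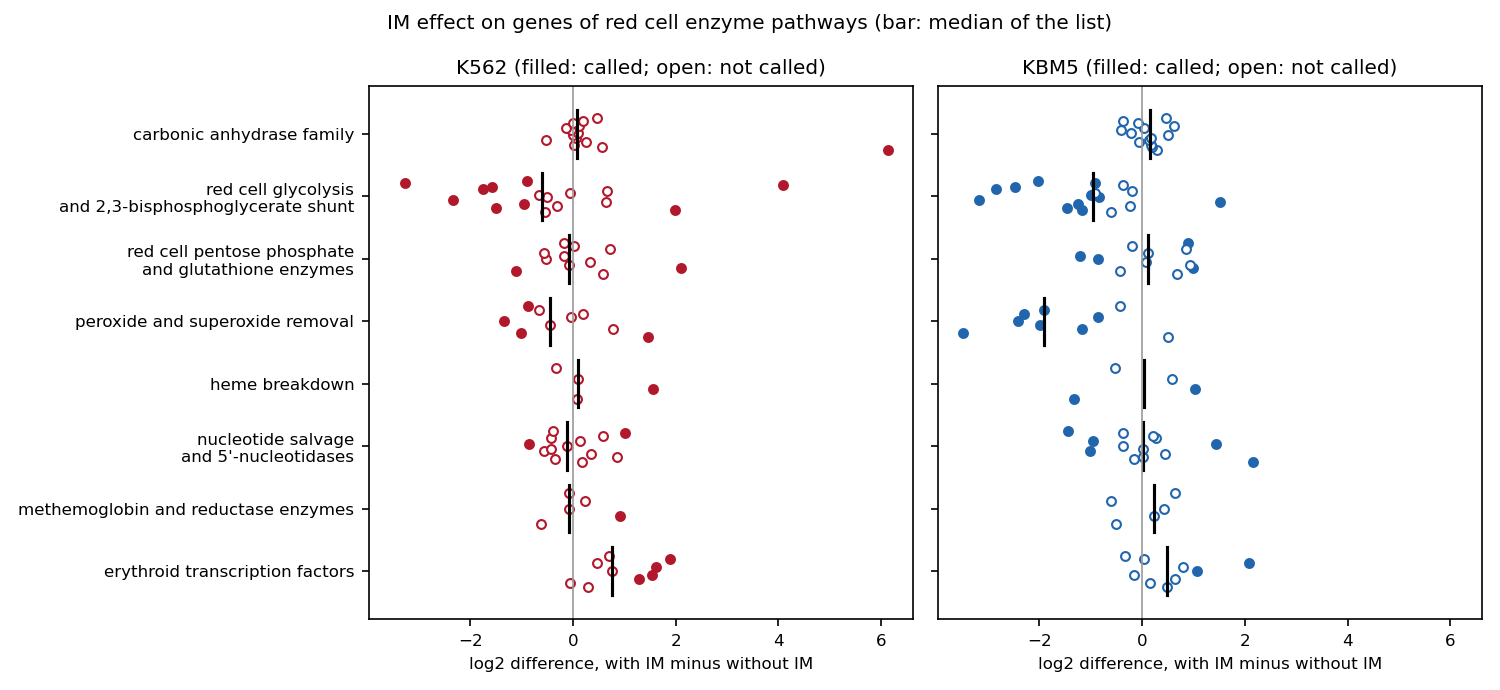
Log2 difference with IM minus without IM for the measured genes of 8 lists in K562 (left) and KBM5 (right); each point is a gene, filled where called, and the black bar is the list's median. In K562 the points far to the right are CA1 (6.14), PKLR (4.10) and BPGM (2.00) with GLRX (2.10), while most of the glycolysis list lies below 0.

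None of the 7 genes was called for OR21 in limma, in K562 (where 0.0905% of all genes were called), in KBM5 (0.543%) or in both lines (0.00%). At an unadjusted p under 0.05 there were 2 of 7 in K562 (4.88% of all genes), 2 of 7 in KBM5 (12.6%) and none in both lines together (3.52%). In K562 the largest values were those of CA1 (1.63 ± 0.32, SE, limma adjusted p = 0.218) and PKLR (1.54 ± 0.36, limma adjusted p = 0.413). With OR21 alone PKLR was at 4.13 times background, against 0.824 times in the control, and CA1 was below background on both arrays. On top of IM, the combination was 1.96-fold above IM alone for CA1 and 1.66-fold for PKLR in K562. In KBM5 the largest were CAT (1.23 ± 0.23, limma adjusted p = 0.0532) and BPGM (1.04 ± 0.23, limma adjusted p = 0.0982). CAT was 2.30-fold higher with OR21 than in the KBM5 control and 2.40-fold higher in the combination than with IM. BPGM was 1.92-fold higher with OR21 than in the control. The OR21 effect did not pass the test of a difference between the lines for any of the 7, where 0.102% of all genes did. At an unadjusted p under 0.05 there were 4 of the 7 and 7.64% of all genes.

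For the combination, none of the 7 genes was called in the model of both lines against control (0.198% of all genes called), against IM (0.00%) or against OR21 (0.221%), with 3, 0 and 1 of 7 at an unadjusted p under 0.05 in limma, where 15.9%, 3.42% and 14.2% of all genes were. That model uses the lines as repeats, and the lines differed for most of these genes. Within a line each of these comparisons is 1 array against another and was not tested on its own. In K562 the combination was above the control by 7.77 for CA1, 5.63 for PKLR, 2.13 for BLVRB, 1.96 for BPGM and 1.72 for CAT. In KBM5 it was above the control by 1.74 for CAT, 0.83 for BLVRB and 0.75 for CA2, and below it by 0.13 for BPGM and 1.38 for NT5C3A. The K562 combination held the highest K562 value of CA1, PKLR, BLVRB and CAT, but not of BPGM. For NT5C3A it was also the highest, but by only 0.02 over the control.

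The interaction of the drugs, the part of the combination that the sum of both drugs does not give, was called for none of the 7 genes nor any other gene in limma (0.00%), with none of the 7 and 274 of all genes at an unadjusted p under 0.05. In K562 the combination fell short of the sum by 1.61 for PKLR, 1.33 for CA1 and 0.65 for BLVRB. In KBM5 BLVRB exceeded the sum by 1.12. For CAT, BPGM and NT5C3A the departure was between -0.31 and 0.32 in both lines. The controls of CA1, PKLR and, in KBM5, BLVRB were at background, so their departures and their differences from the control are not exact.

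The lines themselves were compared over the 4 matched treatments to show which enzymes each line had. Of the 7 genes 4 were higher in K562 (BLVRB, PKLR, CA1 and BPGM), where 17.0% of all genes were, and 2 were lower (CA2 and CAT), where 15.0% were. PKLR was at least 5.70-fold higher in K562 (limma adjusted p = 0.00709), with 3 of 4 K562 arrays above background. CA1 was at least 1.60-fold higher (limma adjusted p = 0.0233), with K562 arrays above background under IM alone and in the combination. BPGM was higher in K562 by 2.99 ± 0.67 (SE, limma adjusted p = 0.0137) and CAT was lower by 1.05 ± 0.31 (log2 difference -1.05, limma adjusted p = 0.0415). NT5C3A differed by 0.19 ± 0.28 (limma adjusted p = 0.682).

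These line differences were not alike under every treatment. For CAT they were -1.13 in the combination, 0.01 with IM, -1.95 with OR21 and -1.11 in the control. For BPGM they were 3.95, 5.21, 0.95 and 1.86 in the same order. Those of CA2 were between -9.15 and -8.27 and those of BLVRB between 6.87 and 8.52, but CA2 was at background on all K562 arrays and BLVRB on 2 KBM5 arrays, so these sizes are not exact. The CAT call was lost without any 1 of 6 arrays (limma adjusted p between 0.107 and 0.14), and remained without the K562 IM or KBM5 IM array. The CA1 call was lost without any 1 of the 4 arrays with IM (limma adjusted p up to 0.0948), and that of BPGM without either combination array (limma adjusted p = 0.0642). With log2(value + 16) the calls of CAT (limma adjusted p = 0.0651) and CA1 (0.0764) were lost as well.

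**Figure D4:**
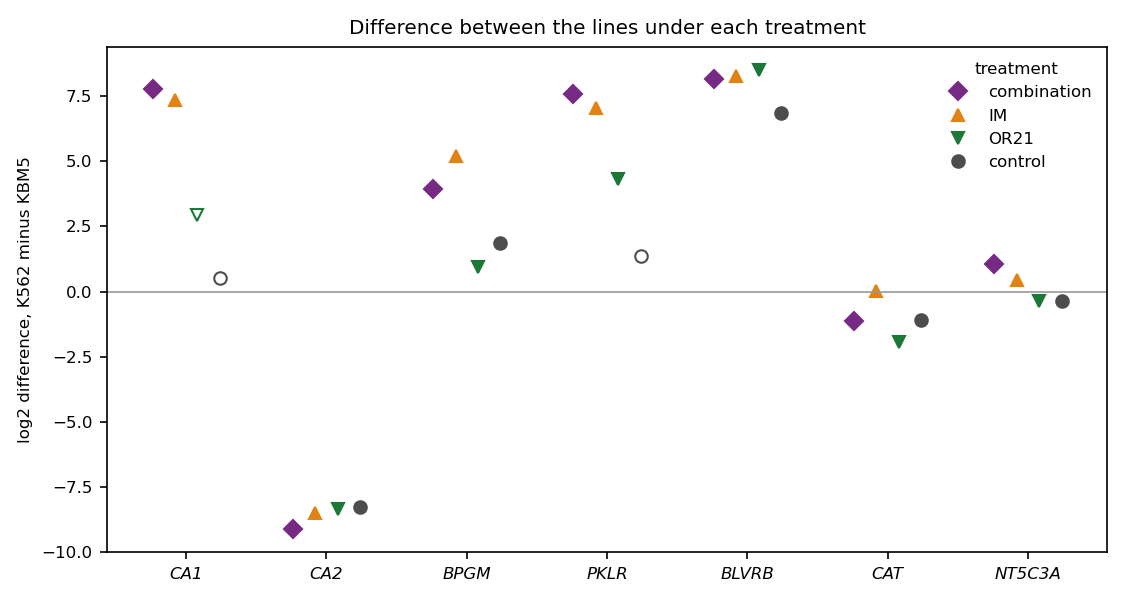
Log2 difference, K562 minus KBM5, of each of the 7 genes under each treatment, 1 array per line; open symbols mark pairs with both arrays at background. CA2 lies between -9.15 and -8.27 and BLVRB between 6.87 and 8.52 over the 4 treatments, while CA1 and PKLR are at 7.04 or more in the combination and with IM.

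The genes whose profile over the 8 arrays was most like that of an enzyme were ranked for CA1 and for those above background on at least 4 arrays, by the mean absolute difference of log2 values, after each gene's own mean was subtracted, among the 8460 genes above background on at least 1 array. For CA1 they were TUBB1 (0.38), EPB42 (0.42) and CYP3A5 (0.48), but CA1, TUBB1 and CYP3A5 were above background on 2 arrays and EPB42 on 3, so that this likeness is mostly one of background values. For CA2 they were ARHGAP15 (0.26), SNTB1 (0.27) and AHR (0.28), each above background on 4 arrays. For BLVRB they were AKR1C1 (0.34), GFI1B (0.46) and DSCR8 (0.48), each also above background on 4 arrays. CA2 was itself above background on 4 arrays and BLVRB on 6, so their likenesses rest in part on background values too. PKLR, above background on 3 arrays, was not ranked. BPGM had APOBEC3F (0.31), ABHD5 (0.33) and HINT2 (0.36), above background on 2, 4 and 5 arrays. CAT had SUMF1 (0.26, above background on 5 arrays), and ZNF430 (0.28) and TINF2 (0.29), both on all 8. NT5C3A had MAP3K20 (0.10) and CHST10 (0.11), both above background on all 8 arrays, and PIGN (0.10), on 6. For NT5C3A the small differences go with its small range, its highest value being 2.61 times its lowest, against 864 times for BLVRB.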

How the data were processed

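Biotin-labelled total RNA of K562 and KBM5 was measured on expression arrays, 1 array for each line and treatment, and grouped by sample title. The table deposited by the authors holds a linear intensity for each of 24351 probe sets, with software, summarization and normalization not given in the sources used here. Probe sets with 1 gene symbol in the supplied annotation (17709, for 17687 genes) were used, the brightest per gene. Intensities were analysed as log2 values with no further normalization, across all genes.

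Both limma models (version 3.58.1, R 4.3.3) supplied the repeats that the design lacks. The model of both lines (line plus treatment, 3 residual degrees of freedom) uses K562 and KBM5 as repeats. The model per line (baseline, OR21 and IM terms in each line, 2 residual degrees of freedom) takes the 2 array pairs of a drug in a line as repeats. Its spread per gene is shared by both lines. A gene was called at a Benjamini-Hochberg adjusted p under 0.05 over all genes. A side at background on all arrays gives an "at least" fold, set against the higher of background and the value itself. Precision is limited by the number of arrays.

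The 7 genes, the gene lists and the tests were chosen with earlier results of these data known. Up to 6 called genes of a list and the 3 most alike genes were to be named. Some genes of the lists were not analysed here, and counts are given over the measured ones. Alternatives were quantile normalization, brighter genes only, trended robust moderation, probe set means, log2(value + 16), each array left out, the line left out, a common interaction term, a 99th percentile background, an adjusted p under 0.1 and the 250-base promoter window.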

Additional observations from a re-analysis of the deposited data

Results flagged for a closer look

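For 3 of the 7 genes the effect of IM differed between K562 and KBM5 by the test of the difference itself in limma. The log2 difference of the effects, K562 minus KBM5, was 5.86 for CA1, with 6.80 and 5.47 in the K562 pairs and -0.03 and 0.60 in the KBM5 pairs, with all KBM5 arrays and both K562 arrays without IM at background, so these sizes are not exact. It was 4.47 for PKLR, with 4.90 and 3.30 in the K562 pairs and -0.78 and 0.04 in the KBM5 pairs, where KBM5 and the K562 control were at background. It was 3.18 for BPGM, with 2.07 and 1.92 in K562 and -1.28 and -1.08 in KBM5, where 1 of the 4 arrays was at background. Leaving out any 1 of the 8 arrays ended none of these 3 calls.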

How the results depend on the processing

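The 7 genes in 13 comparisons gave 18 calls. With each array left out in turn, 117 of 144 values of these calls stayed called and 27 did not, and under the other settings 112 of 117 stayed called and 5 did not; none changed sign. Of the 73 results that were not called, none gained a call and 76 of 584 values changed sign with an array left out, while under other settings 15 of 500 gained a call and 5 changed sign. The number of genes called for the IM effect in both lines was 0 with log2(value + 16) and with the line left out of the model, in place of 1, and between 0 and 1 with an array left out. For the difference in IM effect between lines it was 5 with trended robust moderation, with log2(value + 16) and at an adjusted p under 0.1, in place of 3. For OR21 in KBM5 it was 1 with brighter genes only (CAT) and with a common interaction term (CAT), and 2 with trended robust moderation and at an adjusted p under 0.1 (CAT and BPGM), in place of 0. With an array left out it was between 3 and 5 for IM in K562, between 1 and 3 for IM in KBM5, and between 3 and 6 for K562 against KBM5. When an array is left out, a drug effect of its line rests on 1 array pair, with the spread taken from the other line. At the 99th percentile of the negative controls, 2 of 7 genes were above background on the K562 OR21, KBM5 OR21 and KBM5 combination arrays, against 5, 4 and 5 at the 95th. That percentile lay between 768 and 1853 on the KBM5 arrays. The KBM5 values of BPGM (110 to 513) and BLVRB (134 to 402) were all below it, so both sides of their KBM5 calls with IM were then at background. NT5C3A was below it on the KBM5 OR21 (1699) and combination (785) arrays. BPGM (990), PKLR (671) and NT5C3A (1319) were below the 99th percentile of the K562 OR21 array, and BPGM (967) below that of the K562 control. The sizes of the IM effects that use these arrays are then not exact. CA1 is not among the brighter genes. The cause of these changes was not tested. No replicates could be paired, since there was 1 array for each line and treatment and the labels carry no replicate numbers. The array pairs used above are matched by treatment and line alone.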

Other observations

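On the chromosome the carbonic anhydrase genes CA13, CA1, CA3 and CA2 neighbour each other in that order in RefSeq. CA3 (22.2 to 30.5), which lies between CA1 and CA2, and CA13 (36.6 to 92.9), on the other side of CA1, were at background on all 8 arrays. Among other red cell enzymes, the hexokinase gene HK1 was at least 113-fold higher in K562 than in KBM5, where it was at background on all 4 arrays (limma adjusted p = 3.56e-06). The glutathione peroxidase gene GPX1 was at least 79.3-fold lower in K562 than in KBM5, with all 4 K562 arrays at background (limma adjusted p = 4.05e-05). The glutaredoxin gene GLRX was at least 2.92-fold higher with IM in K562 and rose by 0.99 ± 0.25 (SE) with IM in KBM5 (limma adjusted p = 0.000508 and 0.0163). It was the 1 of 11 measured pentose phosphate and glutathione genes that rose in K562, where GCLM fell (-1.10 ± 0.26). In KBM5 2 of the 11 rose and 2 fell, GSS (-1.22 ± 0.23, near background) and GSR (-0.86 ± 0.27). Of all genes, 5.34% rose and 8.05% fell with IM in K562, and 10.8% rose and 10.6% fell in KBM5.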
